A study of Drosophila melanogaster with 3 samples.

Results

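Collier (Col) is the Drosophila member of the COE family of transcription factors. Among the genes to which Col binding summits were assigned, sli is one of those with the largest number. The sli summits are the 7 entries, of 559 in the deposited list of Col summits, whose gene label is sli. They were chosen by this label, and the locus was chosen for its number of summits, so that number, the heights and the positions are given here as a description and without a test. The name fits the rule, since 7 summits carried the label and no other label contained it.

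The list came from chromatin immunoprecipitation followed by sequencing (ChIP-seq) of whole embryos at stages 13 to 14. The Col-IP used a mix of 3 monoclonal anti-Col antibodies and the mock-IP an antibody against the HA tag, and for either antibody the DNA of 2 IPs was pooled into a single library. The remaining sample was input DNA from whole embryos of the same stages, with no antibody. The embryos of the IPs carried the reporter transgene named col 2.6_0.9ColCONS-lacZ, with a consensus Col site in a col enhancer, and were otherwise not described as mutant. Whole embryos mix all cell types, so a summit cannot be assigned to the neurons, muscles or other cells that contain Col. Neither IP had a replicate library, so variation from one IP to another is not known. The list gives no numbers of reads, and the depth at a given summit, and with it the error of its value, is unknown.

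Slit is a large secreted protein that is read by the Roundabout (Robo) receptors on axons and migrating cells. It is made by glia of the ventral midline, where it repels axons and keeps them from lingering or recrossing, and it is also found at muscle attachment sites and along the heart. In the embryo it therefore acts in both the nervous system and the mesoderm, the tissues in which Col specifies neuron and muscle identities. These roles are background and were not measured here.

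All 7 summits lay on chromosome 2R (dm3), from position 11779552 to position 11808282, a span of 28730 bp. In the order of the chromosome, the first summit, at 11779552, had a fold enrichment of 2.87. Fold enrichment is the linear ratio that the peak caller SISSRs gave to each summit, over a background that the sources used here do not name. The second summit, at 11783132, had a fold enrichment of 7.51, the highest at sli. The third, at 11798142, had 4.

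The fourth, at 11799412, had a fold enrichment of 2.2, the lowest at sli. The fifth, at 11800022, had 2.52 and the sixth, at 11800572, had 4.68. The last, at 11808282, had 2.62. The locus thus combined 1 high summit near its left end, a group of 4 summits in its right part with the higher values at the edges of the group, and, at the ends of the span, summits of 2.87 and 2.62.

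**Figure D1:**
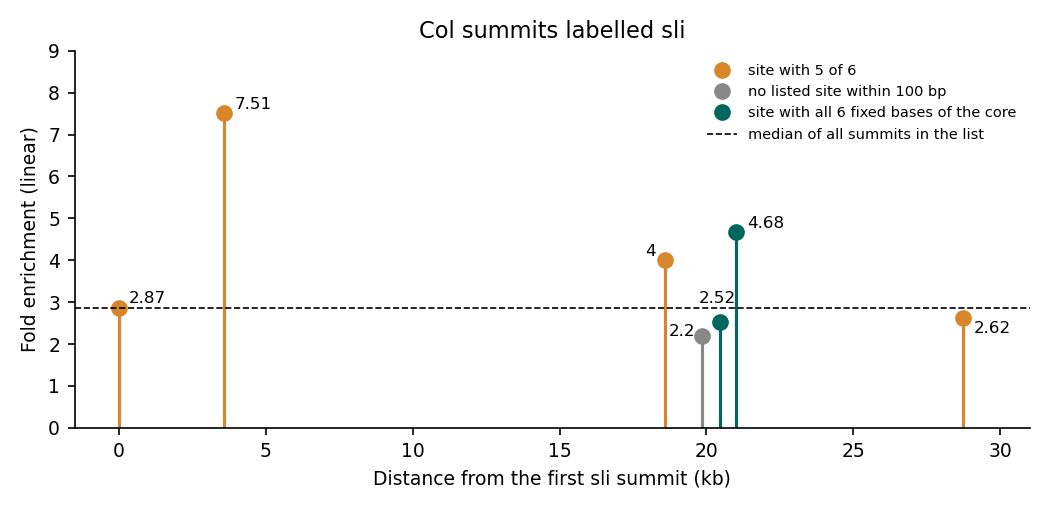
Fold enrichment (linear) of each Col summit labelled sli against its distance in kb from the first of them. Colours give the match of the listed site to the core of the Col motif, and the dashed line is the median of all 559 summits, 2.85. The summit at 7.51 stands 3580 bp from the first, and 4 summits crowd into 2430 bp around 20 kb.

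The sli summits were spread widely over the ranks of the list. The highest ranked 13 of 559 summits, and those at 4.68 and 4 ranked 82 and 123. These 3 lay above the upper quartile of all summits, 3.74. The summit at 2.87 ranked 274 and lay just above the median of 2.85. The summits at 2.62 and 2.52, ranked 340 and 371, lay between the median and the lower quartile of 2.38, and the summit at 2.2, ranked 478, lay under that quartile. The lowest value in the list was 1.94 and the highest was 16.17. The study called peaks at a p-value threshold of 0.1. Whether the lower sli summits would be called again in another library was not tested.

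**Figure D2:**
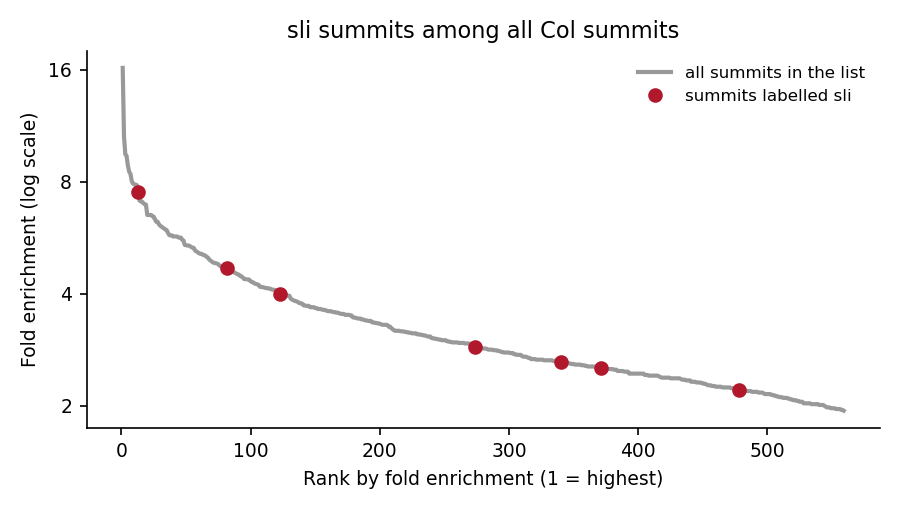
Fold enrichment (log scale) of all 559 summits against their rank, with the 7 summits labelled sli as red points. The sli points run from rank 13 to rank 478 and are spread along the curve.

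The median fold enrichment at sli was 2.87, against 2.85 over the 552 other summits, a difference small beside the range at the locus. Set against the 111 other summits on arm 2R, whose median was 3.14, or against the 106 summits of other labels with at least 3 summits, whose median was 3.13, the median at sli was lower. The highest summit at sli was 3.41 times the lowest and 1.60 times the next highest. Among labels, 11 had a higher summit than sli, and only 3 of those had several summits.

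The summits at sli were unevenly spaced. From left to right, the gaps between neighbours were 3580, 15010, 1270, 610, 550 and 7710 bp. The widest gap separated the highest summit from the group of 4, and 3 of the 6 gaps were under 1300 bp. Among the 144 gaps between neighbouring summits of one label elsewhere in the list, 24 (16.7%) were under 1300 bp and the median was 5135 bp, against 2425 bp at sli. All positions in the list end in the same digit, so summits were called on a grid of steps, and distances carry that resolution.

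Every sli summit had another summit within 10000 bp, and 3 of the 7 had one within 1000 bp. Of the 551 other summits that share an arm with another summit, 163 (29.6%) had a neighbour within 10000 bp and 43 (7.80%) within 1000 bp. The median distance to the nearest summit was 1270 bp at sli and 30010 bp for the others. The locus was chosen for its many summits, which places them close to each other, and these values are therefore given without a test.

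Outside the span the next Col summits lay further away than any gap within it. Gaps between summits of different labels were not measured over the list, so how usual these distances are is unknown. The nearest summit on the left, labelled CG30083, lay 175180 bp away with a fold enrichment of 3.39. The nearest on the right, labelled CG8405, lay 146710 bp away with 2.97. Further left came the summits of unc-5, which encodes a repulsive Netrin receptor, the closest of them 529060 bp from sli with a fold enrichment of 5.09.

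In the RefSeq gene table, which follows Release 6 and served for names and neighbours alone, 3 genes lie inside the interval of sli. These are the antisense RNA asRNA:CR46471, the protein-coding gene CG33463 and the non-coding RNA lncRNA:CR44373, and no summit carried any of their names. The same held for the 4 nearest genes on each side, CG8249, cGlr1, Gpo1 and Rif1 on one and bdg, Diap2, bug and Mlf on the other. Some labels join the names of overlapping genes, such as nub/pdm2, and no sli summit carried such a joint label. The study placed all the sli summits as intragenic. Whether every summit inside a nested gene would receive a joint label is not stated.

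Of the 409 labels, sick alone had more summits than sli, and 314 had a single one. The labels next to sli in this order were sick, with 9 summits, and Oaz, with 6. The 9 summits of sick spread over 105600 bp with fold enrichments from 2.19 to 4.1, so that its highest summit was lower than the pair of highest summits at sli. The 6 summits of Oaz, a zinc finger gene, took up 16920 bp and ranged in fold enrichment from 2.02 to 16.17. In span and in the ratio of highest to lowest summit, sli, at 3.41, stood between sick, at 1.87, and Oaz, at 8.01.

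The other labels with at least 5 summits were CG34380, hth and olf413, each with 5. Their highest summits were 3.11, 3.57 and 3.95, all under the 3 highest at sli. The 5 summits of hth, which encodes a homeodomain cofactor of Hox proteins, were spread over 137680 bp, while those of CG34380 and olf413 took up 21730 and 25930 bp, close to the span at sli.

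**Figure D3:**
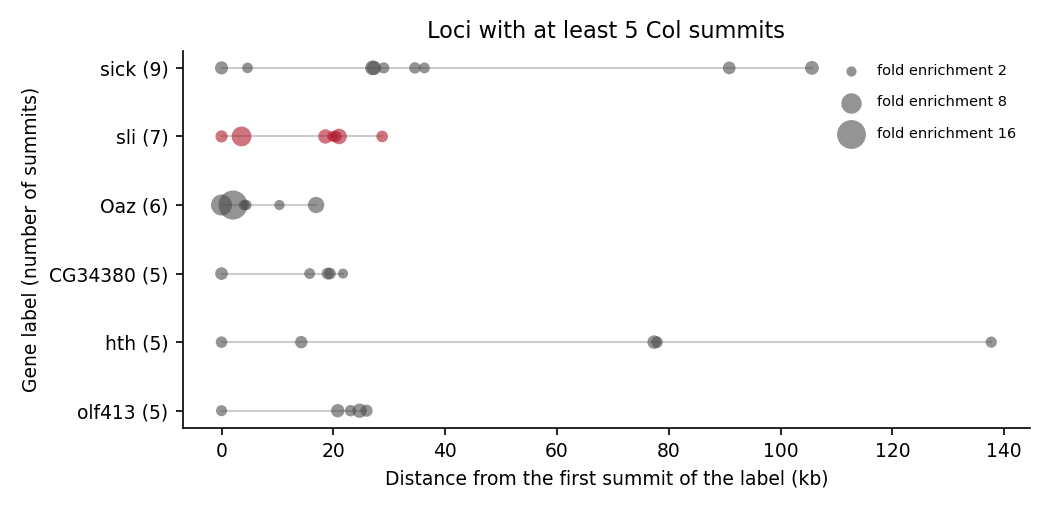
Positions of Col summits at the 6 labels with at least 5 of them, in kb from the first summit of each label, with the area of a point proportional to fold enrichment. The sli summits (red) take up 28730 bp, against 105600 bp at sick and 16920 bp at Oaz.

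Crowding at sli depended on the length over which it was counted. In a window as long as its own span, 28730 bp, sli held 7 summits, and the fullest window elsewhere, at Oaz, held 6. Within 2430 bp, the length of its inner group, sli held 4 summits, and no window elsewhere held more than 3. Both lengths were set by the sli summits themselves. At lengths not taken from the locus, sli did not exceed the fullest window elsewhere. It held 2 summits within 1000 bp, against 3 at snky, and 4 within 10000 bp, against 5 at sick. Within 20000 bp it held 5, against 6 at Oaz.

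**Figure D4:**
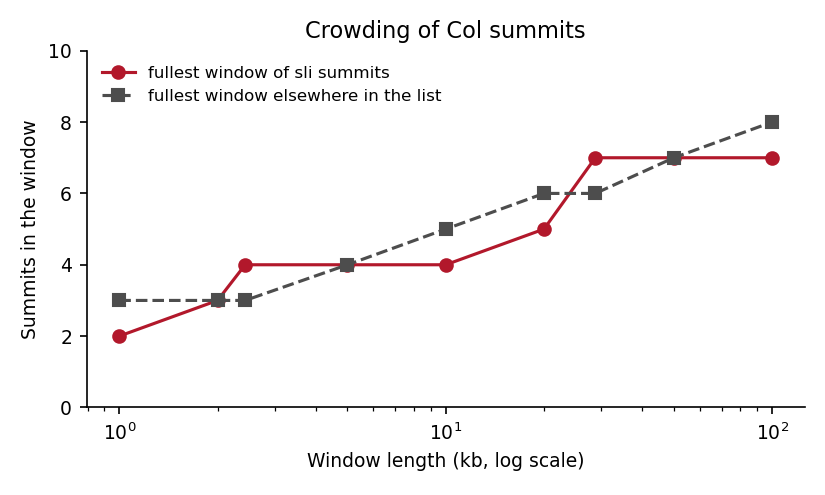
Highest number of summits in a window that starts at a summit, against window length in kb (log scale), for windows of sli summits (red circles) and for windows without one (grey squares). The sli line lies above the other only at 2430 and 28730 bp, the lengths taken from sli itself, and meets or runs under it at the remaining 7 lengths.

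Col and its vertebrate homologue EBF bind DNA as dimers, and the motif is correspondingly palindromic, with the core CCCNNGGG. The study listed 1 site of 15 bases for most summits, found by a motif search in 200 bp around each summit, and the sites were joined here to summits whose position lay within 100 bp of the site centre. A match is a description of letters, since the search that picked the sites was run on these same summits. Of the 7 sli summits, 6 had a site (95% Wilson interval 48.7 to 97.4%). Of the 552 others, 536 had one (97.1%, Wilson interval 95.3 to 98.2%). Such intervals treat summits as independent draws, while the 7 are all the sli summits of 1 library. The exception at sli was the lowest summit, at a fold enrichment of 2.2. It was 1 of 17 summits of the list without a site, whose fold enrichments lay between 1.98 and 4.6 (median 2.44).

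The site sequences at sli are not reported here. Sites of robo3 and comm3 are given to show what a listed site looks like. The first is a receptor gene of the Slit pathway, and the second is a paralogue of comm, which regulates Robo. Both carry Col summits of their own. The letters are those of the study's list, whose strand is not stated, with the 8 bases of the core in capitals. The robo3 site holds 5 of the 6 fixed bases of the core and lies on chromosome 2L (dm3) from 1252170 to 1252184. Of the 2 comm3 sites, the one under the lower summit is shown because it holds all 6, and it lies on chromosome 3L from 15610294 to 15610308. The site under the higher comm3 summit holds 5 of 6.
robo3: aaatCCCAGGAGatg
comm3: tgccCCCAAGGGgag

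The sites at sli lay close to the summits. Their centres were 10 bp from the summit at 2.87, 7 bp from that at 7.51, 34 bp from that at 4, 14 bp from that at 2.52, 21 bp from that at 4.68 and 18 bp from that at 2.62. The median distance was 16 bp, against 18 bp over the other sites. All 6 sites held at least 5 of the 6 fixed bases, as did 467 of the 536 others (87.1%, Wilson interval 84.0 to 89.7%). For the 6 sites at sli the interval was 61.0 to 100%.

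The full core was present at 2 of the 6 sites, those of the summits at 4.68 and 2.52, and both also held CCCNNGGGA on one strand or the other. Over the remaining list 229 of 536 sites (42.7%, Wilson interval 38.6 to 46.9%) held the full core. For the 2 of 6 at sli the interval was 9.68 to 70%. The 2 sli summits with the full core were neighbours, 550 bp apart, and belonged to the group of 4. The sites of the summits at 7.51, 4, 2.87 and 2.62 had 5 of the 6 bases, all with CCC intact and 2 of the 3 bases of GGG. As listed, CCC was intact in 476 of the 536 other sites and GGG in 259, so this inequality of the sides was found over the whole list.

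The highest sli summit thus did not have the best core. When 3 more fixed bases on each side of the core were counted, which extends it to the longer palindrome bound by EBF in vitro with 12 fixed bases, the order at sli followed the heights. The site of the summit at 7.51 matched 10 of the 12 bases. Those of the summits at 4.68 and 4 matched 9, and those of the summits at 2.87, 2.62 and 2.52 matched 8. This longer count was not among the measures planned at the start, so the order it gives describes these sites alone.

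Over the 536 other sites the same count was only loosely related to fold enrichment (Spearman's rho = 0.203, given as a description, since all points come from 1 library and the sites were picked by the motif). For the planned count of core bases, rho over the other sites was 0.146. The median fold enrichment of other summits was 2.83 with 8 of the 12 bases matching, 2.89 with 9 and 3.41 with 10. At sick the relation ran the other way (rho = -0.615 over 9 sites) and at Oaz the same way (rho = 0.759 over 6 sites), against 0.926 over the 6 sites of sli. With so few sites at each locus, these values describe the sites listed.

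**Figure D5:**
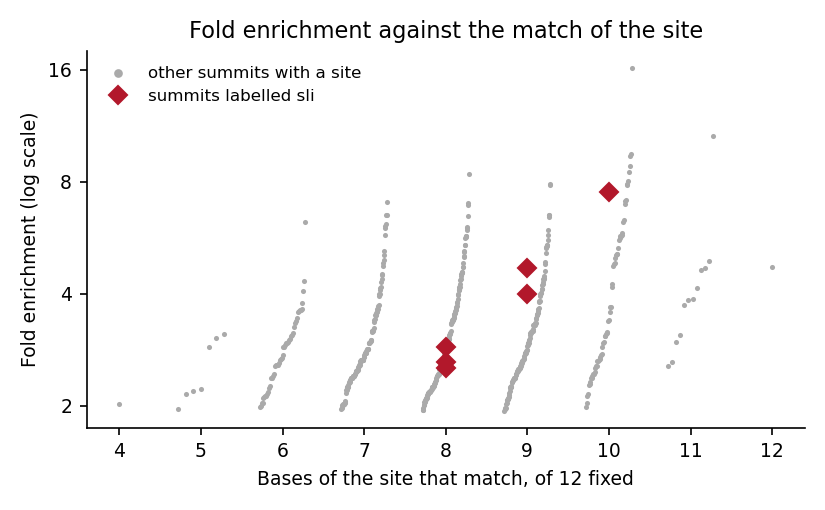
Fold enrichment (log scale) of summits with a listed site against the number of matching bases out of 12, for sli (red diamonds) and the 536 other summits (grey, sorted by height within each column). The sli points climb from 8 matching bases with 2.52 to 2.87, through 9 with 4 and 4.68, to 10 with 7.51, inside the range of the other summits at each number.

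Other genes of the Slit pathway were looked up in the labels, with lists chosen when results of these data were known. As background, 2.92% of the 13962 protein-coding genes of the RefSeq table were named by at least 1 Col summit. Of 14 genes of Slit reception and signalling, 4 were named. The receptor gene robo3 had 1 summit, with a fold enrichment of 3.81. The receptor genes robo1 and robo2 had none under their names. For comm, whose product keeps Robo off the axon surface before crossing, there was 1 summit, at 2.24, and for its paralogue comm3 there were 2, at 3.09 and 2.65. Abl, a tyrosine kinase that acts in Robo signalling, had 1, at 2.48. Each of these summits was lower than the 3 highest at sli.

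Among the other guidance and adhesion genes, 16 of the 40 matched to the table had a summit, against 2.92% of all protein-coding genes. Of the 40, 7 had several, against 0.673%. Part of the listed genes were known to carry summits when the lists were written, so these shares are a description. The most summits on any gene of this list were 3, at unc-5, drl and Ten-a, fewer than at sli. The highest summit was that of Fas1, a homophilic adhesion molecule, at 8.84, the only one of the group above the highest sli summit. Toll-6, a leucine-rich repeat receptor, reached 7, Ten-a, a teneurin, 5.99, and fz, a Wnt receptor, 5.41. The gene table gives Dl as an older name of 2 genes, so the single summit labelled Dl, with a fold enrichment of 6.94, was not counted among the 16. NetB, the Netrin that attracts axons to the midline, had 1 summit at 2.87.

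Of 9 genes of midline cells, 2 had a summit, against 2.92% of all protein-coding genes. These were sim, the regulator of midline identity, at 2.08, and vvl, a POU factor that acts with it, at 3.45. Of 23 genes of tendon cells and muscle attachment, 4 had one. Grip, which acts in muscle guidance, reached 5.93, kon, a transmembrane protein that binds Grip, 3.38, vn, a muscle-derived EGF receptor ligand, 2.77, and Dys, dystrophin, 2.2. In all, 26 of 86 listed genes were named by a summit, against the same 2.92%. A summit with a fold enrichment of at least 3 named 14 of them, against 1.42% of all protein-coding genes. Gene length was not taken into account in these shares, and part of the listed genes were known to carry summits when the lists were written.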

How the data were processed

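ChIP-seq of Col was compared with a mock-IP in whole embryos, 1 library each. The authors aligned reads to BDGP release 5 (dm3) with Bowtie 0.12.7, called peaks with SISSRs 1.4 on the pooled library (p-value threshold 0.1, E-value threshold 1500), and deposited for each summit a position, a gene label (PeakAnalyzer, partly curated) and a fold enrichment. The mock-IP and input were not analysed separately. Positions are 1-based.

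Summits were selected by an exact label match and ranked over all 559. Sites of 15 bases, with their places, were taken from the study's supplementary list (MEME-ChIP 4.10.0) and joined within 100 bp. Of 414 gene names in labels, 409 matched the RefSeq table (Release 6). No test was run, since the locus was chosen from the same contrast and there are no replicates. The members, lists and named genes (sli, labels with at least 5 summits, listed genes with a summit, flanking labels and neighbours, and snky, named after its values were seen) were chosen with earlier results of these data known. Alternatives were thresholds of 2.5 and 3, merging within 200 or 1000 bp, shorter reaches, looser motifs and other window lengths. Wilson intervals cover counting error only and treat summits as independent. Measures were tested on simulated data. Python 3.11.15, numpy 2.4.6, scipy 1.17.1 and matplotlib 3.10.9 were used.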

Additional observations from a re-analysis of the deposited data

How the results depend on the processing

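With a fold enrichment of at least 3, 3 sli summits remained over 17440 bp, and with at least 2.5, 6 remained over the whole span. Merging within 1000 bp left 5 and raised their median to 4. The median at sli exceeded that of all other summits by 0.02, and the difference was -0.27 against arm 2R and -0.26 against labels with at least 3 summits. Allowing 5 of 6 core bases raised the sites that qualify from 2 to 6. Of the 86 listed genes, 26 had a summit, 14 had one of at least 3 and 8 had several. Over all protein-coding genes these shares were 2.92%, 1.42% and 0.673%. The lead of sli over the fullest window elsewhere, 1 summit at its own span, was -1 at 1000, 10000, 20000 and 100000 bp and 0 at 2000, 5000 and 50000 bp, lengths chosen after the data were seen. No paired analysis was possible because each group has 1 library.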
